A study of Mus musculus with 2 samples.

Results

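The 10 genes described here encode enzymes that begin the breakdown of the branched-chain amino acids leucine, isoleucine and valine. They were taken by gene symbol and are 10 of the 43346 Ensembl genes that the deposited tables list. The tables come from 2 RNA-seq libraries of polyadenylated RNA from the heart of 1 female C57BL/6J mouse, an adult aged 10 weeks with no treatment or engineered allele in the labels. The libraries are technical replicates 2 and 1 of 1 biological replicate, and replicate 2 was added in 2015 to an earlier study that held replicate 1. There is no second group, so the only comparison is replicate 2 over replicate 1, with 1 library each, no replicate check and no p-value.

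Breakdown starts with transfer of the amino group by a branched-chain aminotransferase, which has a mitochondrial form (BCAT2) and a cytosolic form (BCAT1). The branched-chain ketoacid dehydrogenase complex then commits the carbon skeleton to oxidation in the mitochondrion. It is built from a decarboxylase (E1, with alpha and beta subunits), an acyltransferase core (E2) and a dehydrogenase (E3) that other complexes share. A kinase (BCKDK) switches the complex off by phosphorylating E1 alpha and a phosphatase (PPM1K) switches it back on. Leucine carbon is passed on to isovaleryl-CoA dehydrogenase (IVD) and then to the biotin-dependent methylcrotonyl-CoA carboxylase (MCCC1 and MCCC2). Heart muscle is known to transaminate branched-chain amino acids and to oxidise part of their ketoacids.

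Replicate 2 held 19685806 counts and replicate 1 held 22775979, and mitochondrially encoded genes with their nuclear copies took 35.7% of them in replicate 2 and 77.9% in replicate 1. That left 12654724 nuclear counts in replicate 2 and 5028154 in replicate 1. Levels are nuclear TPM, which is the deposited TPM, a length-corrected abundance, rescaled to 1000000 over those nuclear genes. Cardiomyocyte markers, 5 genes, summed to 63857 nuclear TPM in replicate 2 and 10689 in replicate 1. Ratios are log2 of replicate 2 over replicate 1, from counts scaled by the trimmed mean of M values (TMM) with 0.5 added, over the 13182 genes with at least 20 counts over both libraries together. The median of those genes was 0.37. Counts include all reads from the tissue, so in a level the cell number and the RNA per cell cannot be told apart. Both libraries come from 1 biological replicate, so a ratio between them compares libraries, not animals.

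The members whose ratios lay furthest apart also differed in base composition, and a stretch from the middle of the coding sequence of each is shown for that reason, for the pair with the highest ratios (Bckdha and Bcat2) and the pair with the lowest (Dbt and Ppm1k). Each is 150 bases of coding sequence on the coding strand, from GENCODE M21 transcripts on GRCm38 (mm10), and each spans 2 exons. Capitals mark runs of at least 4 bases that are all G or C.
Bckdha-201 (chr7:25631750-25633294, minus strand, coding bases 595 to 744): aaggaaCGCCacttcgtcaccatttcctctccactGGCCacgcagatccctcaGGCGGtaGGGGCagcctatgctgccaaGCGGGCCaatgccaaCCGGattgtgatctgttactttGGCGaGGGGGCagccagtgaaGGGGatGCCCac
Bcat2 transcript ENSMUST00000033098.9 (chr7:45585213-45585545, plus strand, coding bases 517 to 666): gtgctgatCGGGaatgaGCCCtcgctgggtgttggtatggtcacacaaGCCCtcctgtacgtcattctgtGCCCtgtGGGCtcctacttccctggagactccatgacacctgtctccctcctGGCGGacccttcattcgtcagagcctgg
Dbt-201 (chr3:116539182-116539680, plus strand, coding bases 649 to 798): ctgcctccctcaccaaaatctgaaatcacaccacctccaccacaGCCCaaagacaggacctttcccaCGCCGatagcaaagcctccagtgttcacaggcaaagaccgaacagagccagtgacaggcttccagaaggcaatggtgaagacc
Ppm1k-201 (chr6:57515667-57522806, minus strand, coding bases 484 to 633): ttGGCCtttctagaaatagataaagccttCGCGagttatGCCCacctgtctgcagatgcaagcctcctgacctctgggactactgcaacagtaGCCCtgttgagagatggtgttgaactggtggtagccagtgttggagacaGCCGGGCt
Of the 150 bases, capitals cover 47 in Bckdha, 25 in Bcat2, 9 in Dbt and 23 in Ppm1k. The GC content of the stretch is 60.7% in Bckdha, 59.3% in Bcat2, 54.7% in Dbt and 52.7% in Ppm1k. Over the whole coding sequence it is 59.8%, 57.0%, 48.5% and 48.9% in the same order.

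The enzymes of the pathway were well represented in replicate 2 and unevenly in replicate 1. In replicate 2, 9 of the 10 genes stood between 57.5 and 343 nuclear TPM, above 86.3% or more of the nuclear genes with a count. In replicate 1 the range was 0.277 to 318 nuclear TPM, and 3 genes besides Bcat1 stood under 10: Bckdk, Bcat2 and Bckdha. Summed over the 10 genes, the level was 1351 nuclear TPM in replicate 2 and 921 in replicate 1, a ratio of 1.47. The order of the genes was not shared between the libraries (Spearman rho = −0.15 over 10 genes, against 0.61 over 13158 nuclear genes, both given as descriptions across genes). In replicate 2 it ran Ivd, Bckdha, Bckdk, Bcat2, Bckdhb, Mccc1, Mccc2, Dbt, Ppm1k and Bcat1. In replicate 1 it ran Bckdhb, Ppm1k, Dbt, Ivd, Mccc1, Mccc2, Bckdk, Bcat2, and then Bckdha and Bcat1 at the same deposited TPM. Each gene's level differed between the libraries by 1.495-fold (Mccc2) or more, up to 1101-fold (Bckdha). Neighbours closer than 1.495-fold cannot be ordered beyond the library at hand. That figure is the smallest gap among the members, not an error for comparing 2 genes. A wider gap within 1 library does not by itself order 2 genes either.

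**Figure D1:**
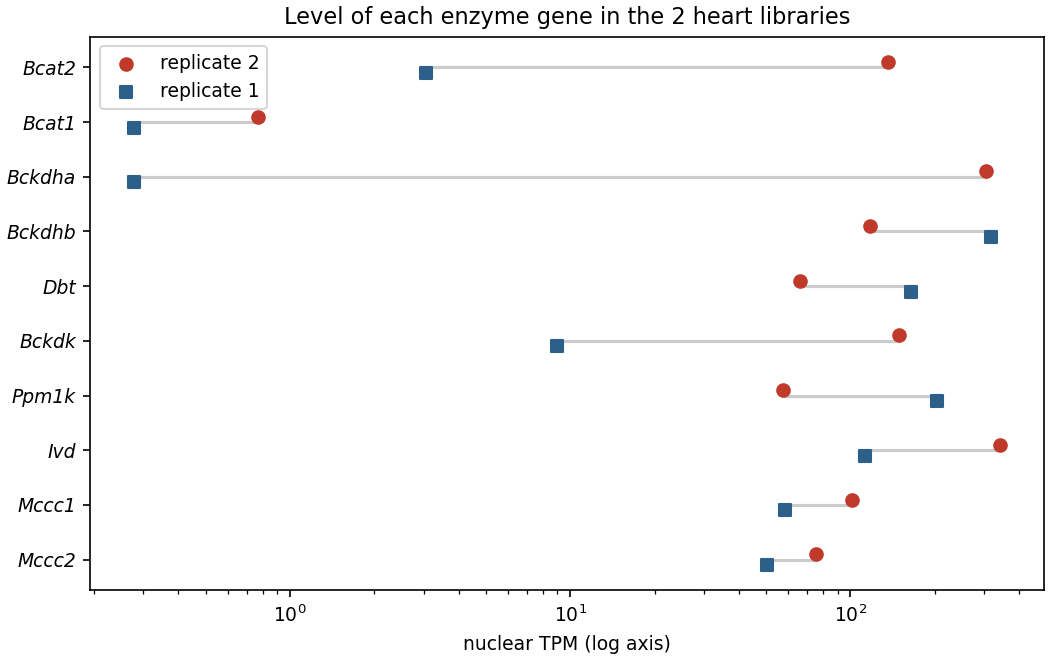
Nuclear TPM (log axis) of the 10 enzyme genes in replicate 2 (circles) and replicate 1 (squares), 1 library each and so without error bars. Bckdha, Bcat2 and Bckdk stand far apart between the libraries, with 305, 136 and 149 nuclear TPM in replicate 2 and 0.277, 3.05 and 9.005 in replicate 1, while Mccc2 stands close, at 75.2 and 50.3.

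Of the 10 genes, 5 were at least 2-fold higher in replicate 2 (Bckdha, Bcat2, Bckdk, Ivd and Mccc1), where 41.1% of all genes compared were. Ppm1k alone was at least 2-fold lower, where 24.2% of all genes compared were, and its direction turns when scaled to all counts or with the GC trend removed, which subtracts the median log2 ratio of genes of like GC content. The other 4 (Bcat1, Bckdhb, Dbt and Mccc2) lay within 2-fold. The median of the 10 log2 ratios was 1.06, with a spread (SD) of 3.51 across genes, beside a median of 0.37 and a spread of 2.41 over all genes compared. All 10 passed the filter on low counts, Bcat1 with only 19 and 4 counts. Scaling to all counts, which takes in the mitochondrial reads, adds 1.53 to each log2 ratio. It would put 8 of the 10 at least 2-fold higher and none lower, beside 8701 and 146 of the 13182 genes compared.

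The aminotransferases were represented almost wholly by the mitochondrial form. Bcat2 (chromosome 7, 45570153 to 45589711, plus strand) had 1635 counts and 136 nuclear TPM in replicate 2, against 12 counts and 3.05 nuclear TPM in replicate 1. Its log2 ratio of 5.72 was higher than that of 95.4% of the genes compared, and the scaled ratio of its counts was 54.7 (95% exact binomial interval 31.2 to 106, which covers counting error only, as do all such intervals here). Bcat1 (chromosome 6, 144993835 to 145076184, minus strand), the cytosolic form known from brain and growing cells, had 19 counts and 0.77 nuclear TPM in replicate 2, against 4 counts and 0.277 nuclear TPM in replicate 1. Its ratio of 1.91 had an interval of 0.63 to 7.71, so no difference was detectable at this depth. Per effective length, Bcat2 exceeded Bcat1 175-fold in replicate 2 (112 to 291) and 13.8-fold in replicate 1 (4.17 to 58.5). The direction was the same in both libraries, and the size was not. In replicate 1 the ratio rests on 12 and 4 counts and on the length given to Bcat1. The effective length of Bcat1 was 3225 bases in replicate 2 and 7646 in replicate 1, which the intervals do not cover. From posterior mean TPM, the mean log2 ratio of Bcat2 over Bcat1 was 2.76 in place of 5.18.

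The E1 alpha gene Bckdha (chromosome 7, 25629946 to 25658981, minus strand) showed the widest gap of all members. It had 3655 counts in replicate 2, at 305 nuclear TPM, and a single count in replicate 1, at 0.277 nuclear TPM. In replicate 2 it ranked 465th among nuclear genes, and in replicate 1 it was barely detected. The scaled ratio of counts was 1468, with an interval of 263 to 57994, and 5 of the 13182 genes compared had a higher log2 ratio than its 9.93. The gene has 1 transcript in the deposited tables. Exons of B3gnt8, a protein-coding gene on the opposite strand, share 1171 bases with its M21 exons, and B3gnt8 itself had 31 counts in replicate 2 and none in replicate 1.

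The other subunits of the complex did not share that gap. Bckdhb (chromosome 9, 83925145 to 84124240, plus strand), which encodes E1 beta, had 875 counts in replicate 2 and 361 in replicate 1, a scaled ratio of 0.97 (0.86 to 1.10) that becomes a log2 ratio of 1.49 when scaled to all counts. Dbt (chromosome 3, 116513070 to 116549981, plus strand), the E2 core that carries the lipoyl arm, had 1547 counts and 65.8 nuclear TPM in replicate 2, against 1201 counts and 165 nuclear TPM in replicate 1. Its scaled ratio was 0.52 (0.48 to 0.56), just inside 2-fold, and its log2 ratio of −0.95 becomes 0.58 when scaled to all counts and 0.54 with the GC trend removed. The balance of E1 alpha to its partners was opposite in the libraries. Per effective length, Bckdha exceeded Bckdhb 2.60-fold (2.41 to 2.80) and Dbt 4.63-fold (4.36 to 4.92) in replicate 2. In replicate 1 it had 8.5e-04 times the level of Bckdhb (2.1e-05 to 0.0047) and 0.0016 times that of Dbt (4.1e-05 to 0.0091). The ratios to Bckdhb also rest on its effective length, 985 bases in replicate 2 and 484 in replicate 1, which the intervals do not cover. With the GC dependence of replicate 2 imposed on replicate 1, the log2 ratios in replicate 1 were −5.50 in place of −9.72 for Bckdha over Bckdhb and −3.31 in place of −8.77 for Bckdha over Dbt.

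**Figure D2:**
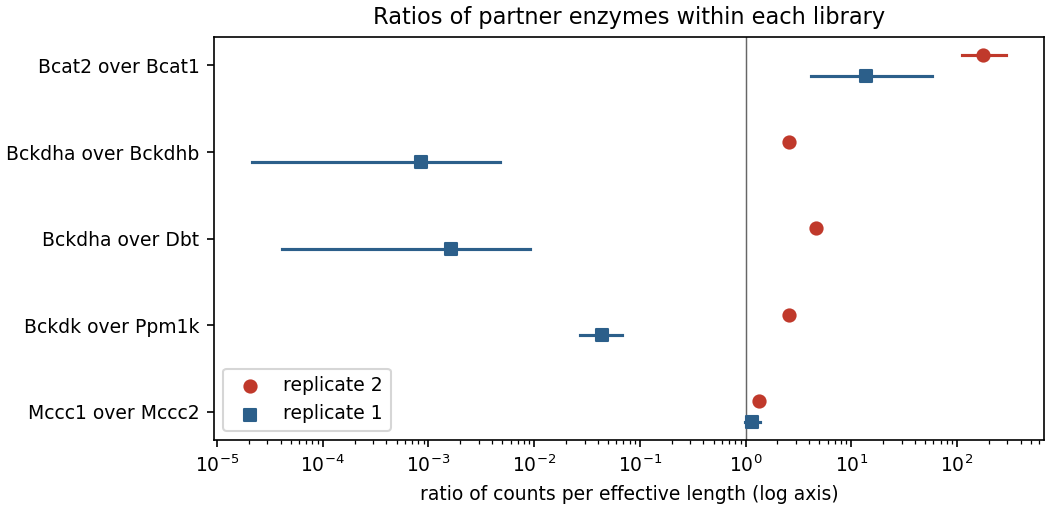
Ratio of counts per effective length (log axis) between partner enzymes in replicate 2 (circles) and replicate 1 (squares), with 95% exact binomial intervals for counting error, 1 library each. Bcat2 over Bcat1 lies above 1 in both libraries, Mccc1 over Mccc2 lies at 1.35 and 1.16 with an interval that spans 1 in replicate 1, and the 3 ratios that involve Bckdha or Bckdk lie on opposite sides.

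The kinase and the phosphatase of the complex also stood in opposite order. Bckdk (chromosome 7, 127904082 to 127910221, plus strand) had 1322 counts and 149 nuclear TPM in replicate 2, against 21 counts and 9.005 nuclear TPM in replicate 1. The scaled ratio was 25.3 (16.5 to 41.0), a log2 ratio of 4.63. Ppm1k (chromosome 6, 57506502 to 57535468, minus strand) had 2334 counts and 57.5 nuclear TPM in replicate 2, against 2558 counts and 203.4 nuclear TPM in replicate 1. Its scaled ratio was 0.37 (0.35 to 0.39), a log2 ratio of −1.45 that becomes 0.08 when scaled to all counts and 0.39 with the GC trend removed. Kinase exceeded phosphatase 2.59-fold per effective length in replicate 2 (2.42 to 2.78), whereas phosphatase exceeded kinase 22.6-fold in replicate 1 (14.7 to 36.5). With the GC dependence of replicate 2 imposed on replicate 1, the log2 ratio of Bckdk over Ppm1k in replicate 1 was −0.32 in place of −4.48. The mean log2 ratio of Bckdk over Ppm1k was −1.55 ± 4.14 (SD, n = 2 technical libraries), so which of them was more abundant cannot be named from these data.

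The leucine-specific enzymes were well covered in both libraries. Ivd (chromosome 2, 118861954 to 118882909, plus strand), a flavoprotein, was the highest member in replicate 2, with 8138 counts and 343 nuclear TPM, against 858 counts and 113 nuclear TPM in replicate 1, a scaled ratio of 3.81 (3.55 to 4.09). Mccc1 (chromosome 3, 35959312 to 36000678, minus strand), the subunit that carries biotin, had 2136 counts and 101 nuclear TPM in replicate 2, against 380 counts and 58.2 nuclear TPM in replicate 1. Mccc2 (chromosome 13, 99948530 to 100015639, minus strand), the subunit that transfers the carboxyl group, had 1100 counts and 75.2 nuclear TPM in replicate 2, against 228 counts and 50.3 nuclear TPM in replicate 1. The scaled ratios of the carboxylase subunits, 2.26 (2.02 to 2.52) for Mccc1 and 1.94 (1.68 to 2.24) for Mccc2, fell on either side of 2-fold with overlapping intervals. The ratio of Mccc1 over Mccc2 had overlapping intervals in the libraries, at 1.35 (1.25 to 1.45) in replicate 2 and 1.16 (0.98 to 1.37) in replicate 1, whose log2 value of 0.21 becomes −0.30 with the GC adjustment. Mccc1 shares 198 exon bases with the antisense gene Mccc1os, which had 41 counts in replicate 2 and 40 in replicate 1.

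The ratio between the libraries moved with the GC content of the members' transcripts. GC content ran from 39.9% in Ppm1k, 42.1% in Dbt and 47.1% in Bckdhb, through 49.7% in Mccc1, 50.4% in Bcat1, 51.0% in Mccc2 and 51.2% in Ivd, to 54.3% in Bckdk, 57.9% in Bckdha and 58.3% in Bcat2. The 3 members of highest GC content are those under 10 nuclear TPM in replicate 1, besides Bcat1. Across the 10 genes Pearson's r between GC content and log2 ratio was 0.88 and Spearman's rho was 0.95, beside 0.85 and 0.90 over the 13115 genes compared that have a GC value. The points share both libraries, and the part of GC content and of the mitochondrial share in these ratios was not tested. Among features of each member's main coding transcript, GC at the third codon position ran from 50.2% in Bckdhb to 76.5% in Bckdha and gave r = 0.93. GC content gave r = 0.89 over the coding sequence, 0.87 over the 3′ untranslated region and 0.87 over the whole transcript. By Spearman's rho the whole transcript was higher, at 0.93 against 0.90 for the third position. Transcript length gave r = −0.43 and coding length r = −0.11.

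Set against genes of like GC content, the members lay above the median of each bin. With 50 bins of GC content over all genes compared, the median log2 ratio of a member's own bin ranged from −1.84 for Ppm1k to 4.37 for Bcat2. After that median was subtracted, all 10 members had a positive value, from 0.21 for Bckdhb to 5.97 for Bckdha, with a median of 0.73, where 49.9% of all genes compared did. Then 3 members (Bckdha, Bckdk and Bcat2) were at least 2-fold higher in replicate 2, where 14.7% of genes were, and none was at least 2-fold lower, where 12.9% were. Bckdha was above 260 of the 262 genes of its bin, whose interquartile range ran from 2.92 to 5.02. Bckdk, at 2.31 above its bin, exceeded 244 of 262, and Bcat2, at 1.35 above its bin, exceeded 211 of 262. Bckdhb, Bcat1 and Mccc2 lay inside the interquartile range of their bins, above 168 of 263, 156 of 262 and 157 of 262 genes. The value of Bcat1 rests on 19 and 4 counts. Ppm1k and Dbt, which lay below 0 on the unadjusted scale, lay 0.39 and 0.54 above their bins.

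**Figure D3:**
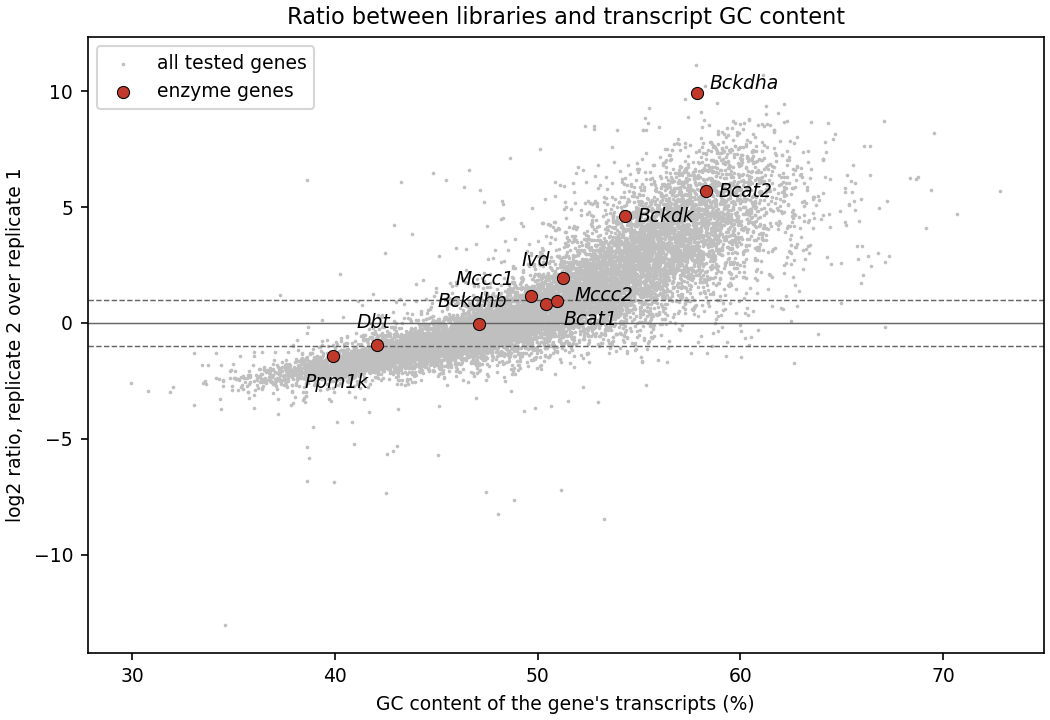
Log2 ratio of replicate 2 over replicate 1 against the GC content of each gene's transcripts (%), for all genes compared (grey) and the 10 enzyme genes (red), with dashed lines at 2-fold. The members run along the grey cloud from Ppm1k, at 39.9% and −1.45 (0.08 when scaled to all counts), to Bcat2, at 58.3% and 5.72, and Bckdha stands above the cloud at 9.93.

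Isoform shares add a further difference within Bckdhb. Of the 10 members, 5 have 1 transcript in the deposited tables and 5 have several, and 2 of these (Bckdk and Ivd) were led by 1 and the same transcript in replicate 2 and replicate 1. In Bckdhb the coding transcript Bckdhb-201 led in replicate 2, with 618 of the 875 counts and 54.2% of the gene's abundance, against 100 of the 361 counts and 10.5% in replicate 1. Bckdhb-203, annotated as a processed transcript without a coding sequence, carried 32.2% in replicate 2 and 85.7% in replicate 1. By posterior mean its shares were 27.1% and 68.9%. The transcripts overlap at the 3′ end. Bckdhb-203 has 4 exons and 540 bases, and its last 3 exons, 507 bases, are the last 3 of the 11 exons of Bckdhb-201. The 33 bases of its first exon (chr9:84045887-84045919, plus strand, GRCm38, GENCODE M21) are in no other Bckdhb transcript, and they are shown because they alone set it apart, in capitals, followed by the start of the shared second exon in lower case.
Bckdhb-203: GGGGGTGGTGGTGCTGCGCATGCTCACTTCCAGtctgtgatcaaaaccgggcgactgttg

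TPM divides by a length that follows the isoform split. The effective length of Bckdhb was 985 bases in replicate 2 and 484 in replicate 1, and its level was 118 and 318 nuclear TPM. With all counts placed over the length of Bckdhb-201 in both libraries, a choice made after the data were seen, the level was 90.2 nuclear TPM in replicate 2 and 120.0 in replicate 1, and the log2 ratio was −0.41 in place of −1.44. The coding transcripts alone summed to 79.7 nuclear TPM in replicate 2 and 45.7 in replicate 1. Without Bckdhb-203, Bckdhb would not be first in the order of replicate 1.

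The other isoform splits were steadier or rest on few counts. Ivd-201, the coding transcript, held 89.1% of Ivd abundance in replicate 2 and 92.9% in replicate 1, and the next, Ivd-204, a retained intron, held 4.67% and 5.99%. Bckdk-202 led in both libraries, with 42.6% in replicate 2 and 73.0% in replicate 1, followed by Bckdk-201 with 30.5% and 26.99%. The replicate 1 shares of Bckdk rest on 21 counts. By counts rather than abundance, Bckdk-201 was first, with 915 of 1322 in replicate 2 and 15.1 of 21 in replicate 1. The deposited Bckdk-202 is 567 bases long and Bckdk-201 is 2848. The coding transcript ENSMUST00000033098.9 held 95.2% of Bcat2 in replicate 2 and 16.9% in replicate 1, and ENSMUST00000153219.3 held 3.05% and 75.4%, where replicate 1 had 12 counts in all. ENSMUST00000111742.3 held 83.8% of Bcat1 in replicate 2 and none in replicate 1, where the 4 counts were all given to ENSMUST00000032402.7.

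**Figure D4:**
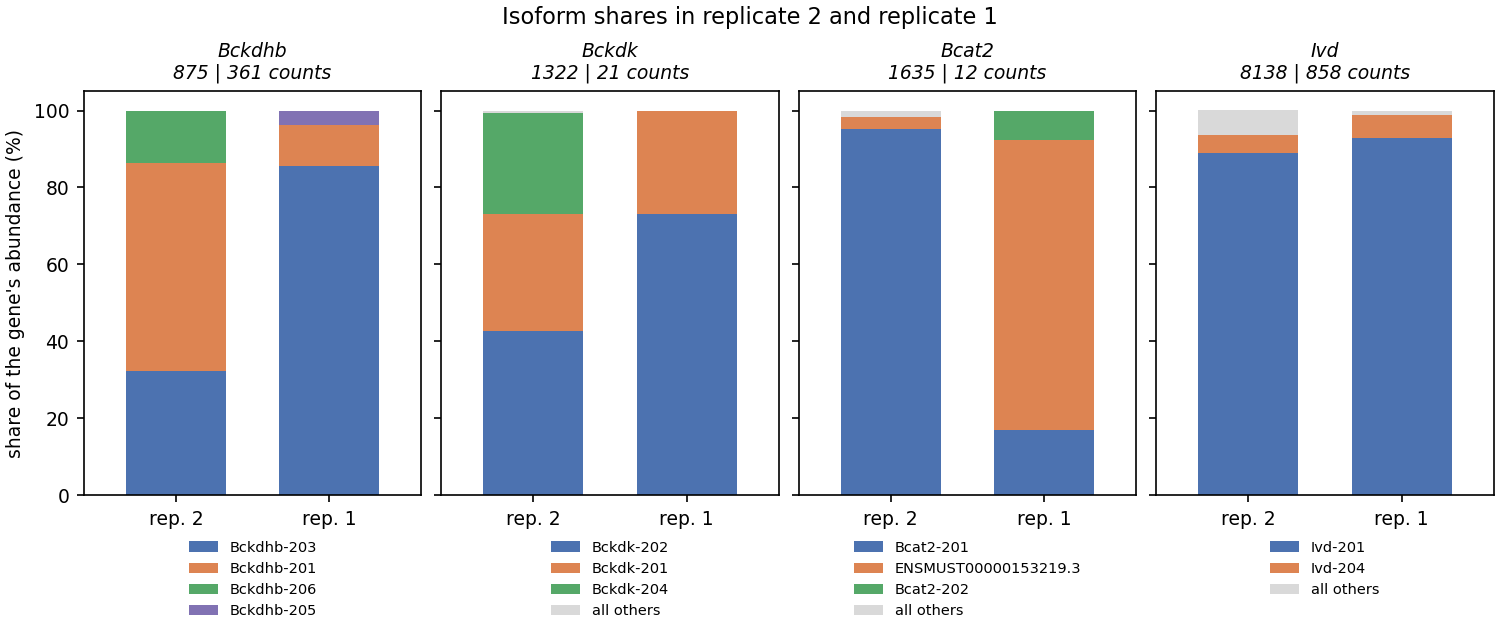
Share of each gene's abundance (%) by transcript, with replicate 2 left and replicate 1 right, for Bckdhb, Bckdk, Bcat2 and Ivd, each with its total counts above in the same order. In Bckdhb the share of Bckdhb-203 is 32.2% in replicate 2 and 85.7% in replicate 1.

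The wider pathway, 35 genes in 7 lists, also spread widely between the libraries. At least 2-fold higher in replicate 2 were 16 of the 35 and at least 2-fold lower were 5, beside 41.1% and 24.2% of all genes compared. Their median log2 ratio was 0.81. When scaled to all counts, 26 of the 35 were higher and none lower, beside 8701 and 146 of the 13182 genes compared. With the GC trend removed, 8 were higher and 1 lower, beside 14.7% and 12.9% of all genes compared, and the median was 0.26. Spearman's rho between GC content and log2 ratio over the 35 genes was 0.82.

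**Figure D5:**
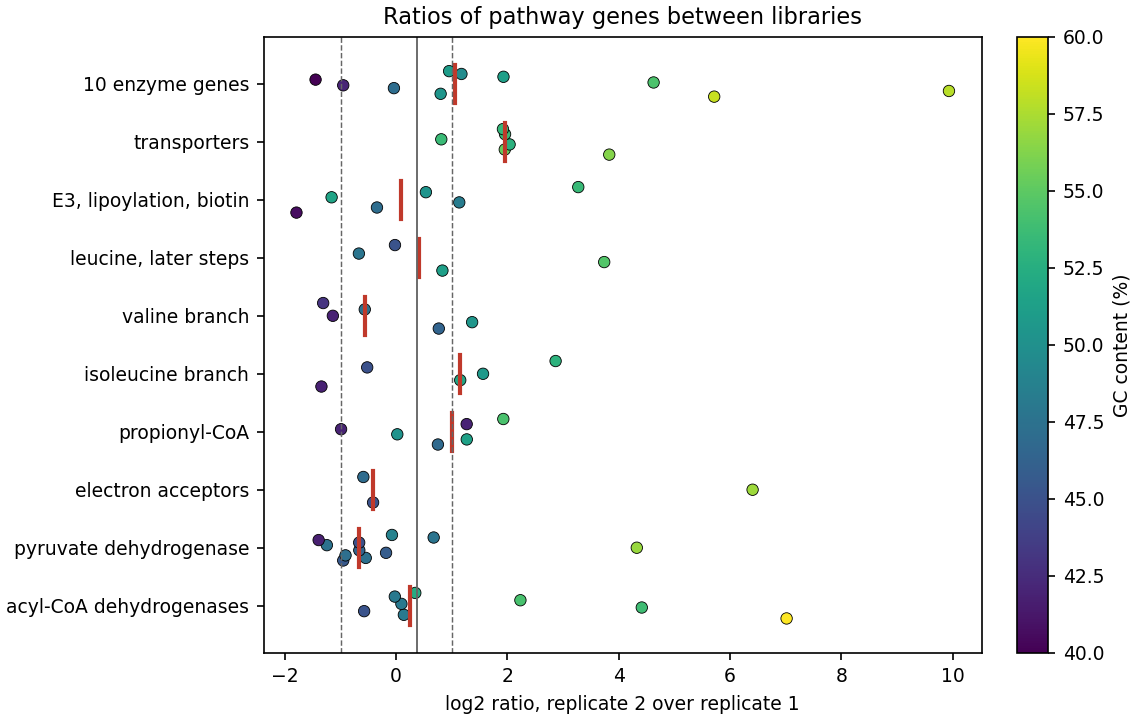
Log2 ratio of replicate 2 over replicate 1 for the 10 enzyme genes, the 7 other pathway lists, the pyruvate dehydrogenase complex and the acyl-CoA dehydrogenases, coloured by GC content (%), with red bars at list medians, a solid line at the median of all genes compared (0.37) and dashed lines at 2-fold. Genes of low GC content lie to the left in most lists, and Bckdha at 9.93 lies furthest right.

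Upstream of the members, 5 of the 6 amino acid transporters were at least 2-fold higher in replicate 2 and none was lower, beside 41.1% and 24.2% of all genes compared, with a median log2 ratio of 1.95. With the GC trend removed, the median was 0.17. None of the 6 was then at least 2-fold higher or lower, beside 14.7% and 12.9% of all genes compared. The leading and lowest genes of this and the following lists are ranked by the mean level of both libraries, and the order can differ within a library. Slc3a2, the heavy chain of the leucine exchanger at the cell surface, had 34.1 nuclear TPM in replicate 2 and 11.4 in replicate 1. Slc25a44, the mitochondrial carrier of branched-chain amino acids, had 16.9 in replicate 2 and 5.96 in replicate 1. Slc7a8, a light chain, had the lowest mean of the list, at 2.28 in replicate 2 and 0.69 in replicate 1.

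Among 6 genes for the shared E3 subunit, lipoylation and biotin supply, 2 were at least 2-fold higher and 2 lower. The shares over all genes compared were 41.1% and 24.2%. The median of the 6 was 0.09, or −0.04 with the GC trend removed. Dld, the E3 subunit, had a higher level than any of the 10 members in both libraries, at 467 nuclear TPM in replicate 2 and 2096 in replicate 1, with a log2 ratio of −1.79. Lias, which makes the lipoyl group, had 68.7 nuclear TPM in replicate 2 and 144 in replicate 1. Hlcs, which attaches biotin to carboxylases such as MCCC1, had 4.35 in replicate 2 and 3.88 in replicate 1.

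Downstream, of 4 genes of the later leucine steps 1 was higher and none lower, beside 41.1% and 24.2% of all genes compared. Their median was 0.41. They were led by the ketone body enzymes Oxct1, at 901 nuclear TPM in replicate 2 and 1826 in replicate 1, and Acat1, at 391.6 and 506. In the valine branch (5 genes), 1 was higher and 2 lower, beside the same shares. The median of the branch was −0.56, which becomes 0.96 when scaled to all counts and 0.36 with the GC trend removed. The highest means were those of Aldh6a1, at 225 nuclear TPM in replicate 2 and 725 in replicate 1, and Hibadh, at 325 and 624, although Echs1, outside the rule for named genes, was highest in replicate 2 at 532, and the lowest mean was that of the dehydrogenase Acad8, at 43.5 and 26.7.

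The list for the isoleucine branch, not all of it specific to isoleucine, held 5 genes. Of these, 3 were higher and 1 lower, beside 41.1% and 24.2% of all genes compared, with a median of 1.15. The trifunctional protein subunits had the highest means, with Hadhb at 2256 nuclear TPM in replicate 2 and 9285 in replicate 1 and Hadha at 1048 and 503. Hadhb had 31337 counts in replicate 2 and 18053 in replicate 1, a log2 ratio of −0.52, so its TPM gap is wider than that of its counts. Hsd17b10 had the lowest mean there, at 233 in replicate 2 and 135 in replicate 1. On the route from propionyl-CoA to succinyl-CoA (6 genes), 3 were higher and none lower, beside the same shares, with a median of 1.01. Mcee had 148 nuclear TPM in replicate 2 and 189 in replicate 1, and the mutase gene Mut had 92.2 and 237. Mmaa, which serves the cobalamin cofactor of the mutase, had 26.7 and 14.3. The electron acceptors of IVD showed the same contrast between partners as E1 alpha and E1 beta. Etfb had 1503 nuclear TPM in replicate 2 and 22.6 in replicate 1, a log2 ratio of 6.41, whereas its partner subunit Etfa had 1055 and 1823, a log2 ratio of −0.41. Etfdh, which passes the electrons to ubiquinone, had 649 in replicate 2 and 1313 in replicate 1. The median of these 3 was −0.41, or 1.11 when scaled to all counts and 0.54 with the GC trend removed.

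Related complexes and families were set beside the members for scale. Of 11 genes of the pyruvate dehydrogenase complex with its kinases and phosphatases, 1 was at least 2-fold higher and 2 lower. The shares over all genes compared were 41.1% and 24.2%. The median of the 11 genes was −0.66, which becomes 0.86 when scaled to all counts and −0.08 with the GC trend removed. The 11 genes summed to 3286 nuclear TPM in replicate 2 and 6082 in replicate 1, above the 1351 and 921 of the 10 branched-chain enzymes. Pdha1 had 1119 and 2802, Pdhb had 832 and 1574, and Pdk3 had the lowest mean at 4.25 and 13.7. Of 8 acyl-CoA dehydrogenases, the family of IVD, 3 were higher and none lower, beside the same shares, with a median of 0.24. They were led by Acadl at 1248 nuclear TPM in replicate 2 and 2410 in replicate 1 and by Acadm at 1222 and 1420. The lowest mean was that of Acad10, at 4.45 and 0.97. Of 5 regulators known for the pathway, 3 were at least 2-fold higher and 1 lower, beside 41.1% and 24.2% of all genes compared, with a median of 1.16, including the coactivator gene Ppargc1a at 68.5 nuclear TPM in replicate 2 and 182 in replicate 1, Nfe2l2 at 65.2 and 136, and Srebf1 lowest at 22.0 and 1.39 (ranked by the mean). With the GC trend removed, that median was −0.11.

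Markers of other cells moved between the libraries as well. Summed nuclear TPM was 609 in replicate 2 and 231 in replicate 1 for 5 endothelial markers, 1072 and 2416 for 5 fibroblast markers, 367 and 175 for 5 macrophage markers, and 695 and 1441 for 4 mural markers. For red cell markers (4 genes) it was 12824 in replicate 2 and 996 in replicate 1. For genes listed as skeletal muscle markers (4 genes, of which Myh4 had no counts) it was 2964 and 13.2. Most of that sum was Ckm, at 2762 in replicate 2 and 9.42 in replicate 1, whereas Tnni2 had 8.75 and 1.39. The sum is therefore not a measure of skeletal muscle in the tissue. Of the mural sum, Rgs5 alone had 322 in replicate 2 and 1393 in replicate 1. The other mural markers, Acta2, Myh11 and Pdgfrb, were each higher in replicate 2. Of the fibroblast sum, Dcn alone had 773 in replicate 2 and 1979 in replicate 1. The mural and fibroblast sums are likewise not a measure of those cells. The sums were 95.1 and 20.1 for 5 adipocyte markers, of which Lep had 3 counts in each library, and 67.2 and 32.0 for 3 liver markers. At least 2-fold higher in replicate 2 were all 5 cardiomyocyte, 4 of 5 endothelial, 1 of 5 fibroblast, 4 of 5 macrophage and 3 of 4 mural markers, beside 41.1% of all genes compared. Of these markers, 1 mural gene was at least 2-fold lower, beside 24.2% of all genes compared. Also at least 2-fold higher were 3 of the 4 adipocyte markers with enough counts, all 3 liver markers, all 3 skeletal muscle markers with enough counts and all 4 red cell markers. With the GC trend removed, the median log2 ratio was 1.56 in place of 3.58 for cardiomyocyte markers, 0.24 in place of 1.73 for endothelial markers, 1.13 in place of 3.76 for macrophage markers and 3.19 in place of 4.51 for red cell markers. The part of these cell types in the members' ratios was not tested.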

How the data were processed

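Both libraries are polyadenylated RNA from 1 mouse heart. Per the deposited file descriptions, reads were mapped to mm10 and quantified on genome annotation M4. No label or header used here names the aligner, the quantifier or the use of strand in counting. Where a member shares exon bases with a gene on the opposite strand, reads from those bases therefore cannot be told apart here. The authors deposited expected counts, which need not be whole and were rounded here, TPM with 2 decimals, and the percent of each gene's abundance per transcript. Gene-level posterior SD of counts was 0 in both libraries for all 10 members and for 87.8% of all genes compared. It does not cover how counts are split among the transcripts of a gene. Gene symbols, GC content and coordinates come from GENCODE M21 on GRCm38.

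Nuclear TPM leaves out mitochondrially encoded genes and 10 nuclear copies (blastn 2.17.0, at least 95% identity over 90% of length) and rescales the rest to 1000000. A deposited step of 0.01 TPM is 0.0256 nuclear TPM in replicate 2 and 0.139 in replicate 1, and genes at the lowest steps are tied. Log2 ratios used edgeR 4.0.16 TMM scaling, 0.5 counts added and at least 20 counts over both libraries; at least 2-fold was counted, with no p-value. Exact binomial intervals (95%) and ratios of counts per effective length cover counting error only. The GC trend is the median log2 ratio in 50 bins. Mean log2 ratios of partners add 0.1 nuclear TPM. DESeq2 1.42.0 size factors were an alternative. The scaling was tested on simulated data. The simulated libraries had no GC trend and no difference in mitochondrial share, so that test does not cover how the scaling behaves on these 2 libraries.

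The members and lists were chosen with earlier results of these data known. All members are named, and of each other list the 2 genes of highest and the 1 of lowest mean level, and any under 20 counts; for isoforms, the 2 leading transcripts. A gene that this rule would name is not reported here. Marker lists are given as sums, with some single genes named beside them. Sequences are from the GENCODE transcripts.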

Additional observations from a re-analysis of the deposited data

How the results depend on the processing

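Scaled to all counts, 8 members were at least 2-fold higher in replicate 2 and 0 lower, and over all genes compared 8701 were higher and 146 lower, beside 5423 and 3190 under TMM scaling; the median of all genes shifts by 1.53. Bckdhb then had a log2 ratio of 1.49 and Ppm1k of 0.078. With the GC trend removed, 3 members were higher and 0 lower, 1928 genes were higher and 1693 lower, Ppm1k stood at 0.39, and Ivd (0.92) and Mccc1 (0.94) came inside 2-fold. With DESeq2 size factors 2 members were lower, since Dbt reached −1.03. With genes of at least 1 count, a larger set, 7214 were higher and 4977 lower. Scaling by nuclear counts, 2 counts added and posterior mean counts kept every member's call. Posterior mean TPM gave a mean log2 ratio of 2.76 in place of 5.18 for Bcat2 over Bcat1. With the GC dependence of replicate 2 imposed on replicate 1, the mean log2 ratio of Bckdk over Ppm1k was 0.52 in place of −1.55, and that of Mccc1 over Mccc2 was 0.066 in place of 0.32; Bcat2 over Bcat1 gave 7.07 in place of 5.18, Bckdha over Bckdhb −2.06 in place of −4.17 and Bckdha over Dbt −0.55 in place of −3.28; the cause was not tested. Each library alone gave −4.48 to 1.37 for Bckdk over Ppm1k, −9.72 to 1.38 for Bckdha over Bckdhb, −8.77 to 2.21 for Bckdha over Dbt, 3.06 to 7.30 for Bcat2 over Bcat1 and 0.21 to 0.43 for Mccc1 over Mccc2, the lower value from replicate 1 in each. Depth limits Bckdha (1 count), Bcat1 (4), Bcat2 (12) and Bckdk (21) in replicate 1. No paired analysis was possible because both libraries come from 1 animal and form 1 group.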
